A study of Homo sapiens with 4 samples.

Results

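CHD proteins are chromodomain helicase DNA-binding proteins, enzymes that use ATP to slide, space or evict nucleosomes. Each carries a pair of chromodomains, which in several members bind methylated histone tails, beside an ATPase motor of the SNF2 type. The family is sorted into 3 subfamilies: CHD1 and CHD2, then CHD3, CHD4 and CHD5, then CHD6 to CHD9. Several members, among them CHD2, CHD7 and CHD8, are neurodevelopmental disease genes. The fragile X protein FMRP binds RNA, associates with polyribosomes and represses the translation of mRNAs it binds.

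The mRNAs of the 9 CHD genes were followed here through immunoprecipitation of FMRP. Members were all probe sets of the array whose only gene symbol in the platform annotation was CHD1 to CHD9. This gave 31 probe sets of 41091 with 1 symbol, and 19 of the 31 passed the filter on low values, which asks for a mean log2 signal of 4.70 or more (the median over every probe set on the arrays). Every gene kept at least 1 probe set, so all 9 were among the 13157 genes tested. The 12 probe sets below the filter belonged to CHD2 (4), CHD9 (4), CHD6 (2), CHD5 (1) and CHD7 (1). The genes lie on different chromosomes in the GRCh38.p14 gene table, CHD1 on 5, CHD2 on 15, CHD3 on 17, CHD4 on 12, CHD5 on 1, CHD6 on 20, CHD7 on 8, CHD8 on 14 and CHD9 on 16.

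The IP group was RNA recovered with the anti-FLAG M2 antibody from cells expressing FlagHA-tagged FMRP, 2 samples, and the lysate group was total RNA taken before the IP, 2 samples. Both groups came from a stable Flp-In T-REx HEK293 line, human embryonic kidney cells whose integrated transgene was switched on with 1 µg/ml doxycycline for 16 h, so the lysate RNA also comes from cells making the tagged protein. Cells were lysed at 150 mM KCl, and beads were washed in lysis buffer raised to 300 mM KCl. From each sample 2 µg of RNA was labelled, and each was hybridized to its own Affymetrix U133 Plus 2.0 array. With equal RNA per sample, higher and lower refer to shares of each RNA pool, not to amounts recovered. The labels do not say whether replicates were separate cultures, so the p-values measure only the spread between these samples, which may be technical, and no mock IP is among them.

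Pearson's r across genes, which are not independent, was 0.992 between the IP arrays and 0.993 between the lysate arrays, and 0.873 to 0.903 between an IP and a lysate array. Of 6 HEK293 marker genes with a probe set, 5 lay above the array median in the lysate (NEFM did not), and 1 of 7 markers of other cell types did, HBB, at a mean of 5.56. All values are relative to the scale on which the authors deposited the arrays. The 18 hybridization control probe sets, RNAs added to each hybridization in set amounts, lay 0.48 higher on the IP arrays on the log2 scale. With each array centred on them, the median change of all genes moved to -0.40, against 0.08 as deposited, and 24.7% in place of 54.9% of called genes were higher in the IP. The size of a change below is therefore tied to the deposited scale, and the text says where this centring ends the call of a CHD gene or of another gene it names.

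CHD mRNAs were mostly over-represented in the FMRP IP. Of the 9 genes, 7 were higher in the IP (CHD2, CHD3, CHD4, CHD5, CHD6, CHD7 and CHD8) and 2 were lower (CHD1 and CHD9), at an adjusted p of at most 0.05 (limma, Benjamini-Hochberg over the 13157 genes). Over all genes tested 35% were called higher and 28.8% lower, together 63.9%, so a call alone is common in this comparison. The changes of the CHD genes ran from -0.55 to 2.16 on the log2 scale with a median of 1.03, beside a median of 0.08 and an interquartile range of -0.48 to 0.61 over all genes. In each of the 9 genes both IP arrays lay on one side of both lysate arrays, which held for 82.3% of all genes.

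**Figure D1:**
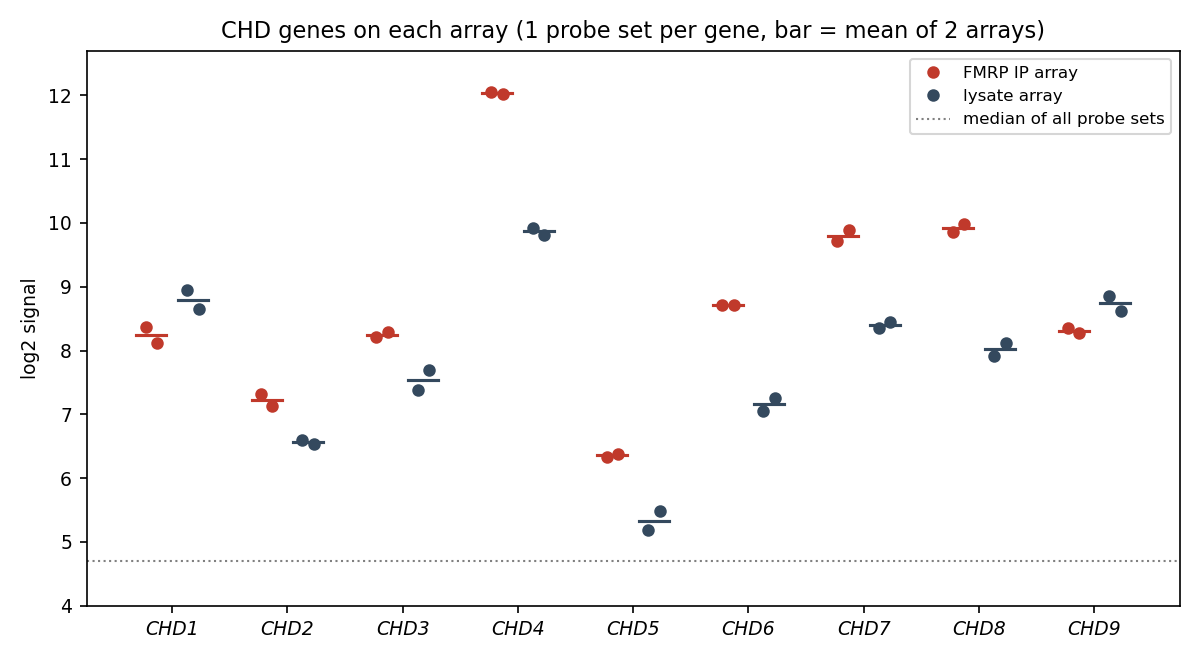
Log2 signal (y axis) of the 9 CHD genes on the 2 FMRP IP arrays (red) and the 2 lysate arrays (dark blue), with 1 probe set per gene and bars at the group means. The IP points lie above the lysate points in 7 genes and below them in CHD1 and CHD9. Levels of different genes come from different probe sets and are not to be compared.

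In the subfamily of CHD3, CHD4 and CHD5, the ATPases of the NuRD complex that pairs nucleosome remodelling with histone deacetylation, all 3 members were higher in the IP. CHD4, the main NuRD ATPase of most cells, stood at log2 signals of 12.05 and 12.02 on the IP arrays, against 9.93 and 9.82 on the lysate arrays. The IP arrays lay more than 2 log2 units above the lysate arrays, while arrays within a group differed by little. The difference was 4.48-fold (log2 change 2.16 ± 0.12 SE, 95% interval 1.89 to 2.44, n = 2 each, limma adjusted p = 3.44e-05), and 42 of the 13157 genes had a more positive change. The other CHD4 probe sets gave changes of 2.10 and 1.84.

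CHD3, a paralog that can take the place of CHD4 in NuRD, had log2 signals of 8.20 and 8.30 in the IP, against 7.39 and 7.70 in the lysate. Its change of 0.71 ± 0.14 SE (limma adjusted p = 0.00278) was less than that of its other probe set, 0.97, by an amount that did not pass a test of the difference (adjusted p = 0.25). The CHD3 gene call did not hold with hybridization control centring (0.23). CHD5, best known from the nervous system and testis and as a candidate tumour suppressor, had 6.33 and 6.38 in the IP, against 5.18 and 5.48 in the lysate. All 4 values lay in the lower part of the signal range, and the arrays did not overlap. The change was 1.03 ± 0.14 SE (limma adjusted p = 3.75e-04), and a second, dimmer CHD5 probe set below the filter had a change of 0.58. All probe sets of CHD4 and CHD5, and the CHD3 probe set that represents the gene, are of a class whose probes can match more than 1 transcript or gene, and a contribution of one paralog to the signal of another was not tested.

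Among CHD6 to CHD9, 3 genes were higher in the IP and 1 was lower. CHD8, a gene linked to autism whose protein binds beta-catenin, had log2 signals of 9.85 and 9.98 in the IP, against 7.92 and 8.12 in the lysate. On its single probe set the IP exceeded the lysate 3.73-fold (a log2 change of 1.90 ± 0.13 SE, 95% interval 1.60 to 2.20, n = 2 each, limma adjusted p = 3.48e-05), and 143 genes had a more positive change. CHD6, a less studied remodeller, had 8.71 and 8.72 in the IP, against 7.05 and 7.26 in the lysate. That was a change of 1.56 ± 0.12 SE (limma adjusted p = 4.52e-05), and the other CHD6 probe set past the filter changed by 1.79. The 2 CHD6 probe sets below the filter changed by -0.33 and 0.03.

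CHD7, the gene mutated in CHARGE syndrome and needed for neural crest development, had log2 signals of 9.71 and 9.89 in the IP, against 8.35 and 8.44 in the lysate. Its change was 1.40 ± 0.12 SE (limma adjusted p = 6.13e-05). A further CHD7 probe set of similar brightness changed by 1.42, and a dimmer one changed by 0.57, less than the first by 0.83 (adjusted p = 0.00729 for the difference). The first and the dimmer set are of the class that can cross-hybridize, and the dimmer one lost its call with hybridization control centring (0.09). The CHD7 probe set below the filter changed by -0.01.

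CHD9 went the other way on the probe set that represents the gene. This chromatin remodeller, described in osteoprogenitor cells, had log2 signals of 8.35 and 8.27 in the IP, against 8.85 and 8.63 in the lysate. The IP arrays lay below both lysate arrays, by less than 1 log2 unit, a change of -0.43 ± 0.13 SE (95% interval -0.73 to -0.13, n = 2 each, limma adjusted p = 0.0193). The call was lost without lysate replicate 1 (-0.32, adjusted p = 0.111) and without IP replicate 2 (-0.39, adjusted p = 0.0672). It was also lost with no filter on low values (-0.43, adjusted p = 0.0581), and over the 13 alternatives the adjusted p ran from 0.00217 to 0.323.

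CHD1 and CHD2, the subfamily tied to transcription elongation and nucleosome spacing over gene bodies, were split on the probe sets that represent them. CHD1, the founding member of the family, had log2 signals of 8.37 and 8.12 in the IP, against 8.94 and 8.65 in the lysate. All IP values were below all lysate values, with an SD of 0.18 in the IP and 0.21 in the lysate. The change was -0.55 ± 0.15 SE (95% interval -0.90 to -0.20, n = 2 each, limma adjusted p = 0.0129). The call was lost without lysate replicate 1 (-0.41, adjusted p = 0.0857) and without IP replicate 2 (-0.43, adjusted p = 0.0531), and over the 13 alternatives the adjusted p ran from 0.00234 to 0.0857. CHD2, a gene linked to childhood epilepsy, had 7.33 and 7.13 in the IP, against 6.60 and 6.54 in the lysate, a change of 0.66 ± 0.12 SE (limma adjusted p = 0.00214). The CHD2 call did not hold with hybridization control centring (0.18).

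Probe sets of the same CHD gene did not always move together, and CHD9 had probe sets called in both directions. In CHD9, the brightest probe set, 212616_at, was the lower one described above. The probe set 212615_at was higher, with log2 signals of 7.60 and 7.60 in the IP, against 7.32 and 7.06 in the lysate. The probe set 229586_at was also higher, at 7.48 and 7.59 in the IP, against 7.26 and 6.82 in the lysate. Their changes of 0.41 and 0.50 (limma adjusted p = 0.0324 and 0.0366 over 23516 probe sets) differed from that of the brightest set by 0.84 and 0.93 (adjusted p = 0.00723 and 0.00861 for the difference). The higher calls were lost without lysate replicate 2 (0.28 for each) and without IP replicate 2 (0.41 and 0.44), that of 212615_at also without IP replicate 1 (0.41), and both with no filter (adjusted p = 0.0919 and 0.0988). With hybridization control centring both were near 0, at -0.07 and 0.02. The 4 CHD9 probe sets below the filter had changes from -0.80 to -0.03.

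In CHD2, the probe set 228999_at had log2 signals of 4.62 and 4.01 in the IP, against 5.34 and 6.04 in the lysate. The IP mean of 4.32 lay below the filter, so this set was tested only because of its lysate mean of 5.69. It had to be lower in the IP to be so kept, and no fold or test of it is given. The spread was wide in both groups (SD 0.43 in the IP and 0.49 in the lysate). Of the 4 CHD2 probe sets below the filter, 3 had changes below 0 and 1 above. In CHD1, the probe set 235791_x_at, of a class that can cross-hybridize, had 8.49 and 8.40 in the IP, against 8.55 and 8.48 in the lysate. The groups overlapped, and its change was -0.07 (adjusted p = 0.635, 95% interval up to 0.21). With hybridization control centring it was called lower (-0.55, limma adjusted p = 0.0201). It differed from the other CHD1 set by 0.48, with an adjusted p of 0.0529 for the difference. Its means of 8.44 in the IP and 8.51 in the lysate lay near the 8.25 and 8.80 of that other set. Which of them represented CHD1 thus rested on a small difference in brightness.

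Over the 19 CHD probe sets tested, 15 were higher in the IP, 3 lower and 1 not called, where 33.2% of all 23516 probe sets tested were higher and 28.3% lower. Without 228999_at these counts were 15 higher, 2 lower and 1 not called of 18. CHD9 was then the CHD gene with calls in both directions, which 4.88% of the 6246 genes with more than 1 tested probe set had. Of 9 other CHD probe sets set against the brightest set of their gene, 3 differed in their change, a share close to the 35.1% of 10359 pairs over all genes. The shares over all genes and probe sets were not cleared of sets like 228999_at, kept through 1 group mean alone, so they are not filtered alike. Probe sets of 1 gene are not replicates. Which exons, untranslated regions or introns each one reads was not analysed here. When the kept probe sets of each gene were averaged, CHD9 stood at 0.16 (adjusted p = 0.323), CHD2 at -0.36 (adjusted p = 0.107, with 228999_at in the mean) and CHD1 at -0.31 (adjusted p = 0.0586), and no CHD gene was called lower.

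**Figure D2:**
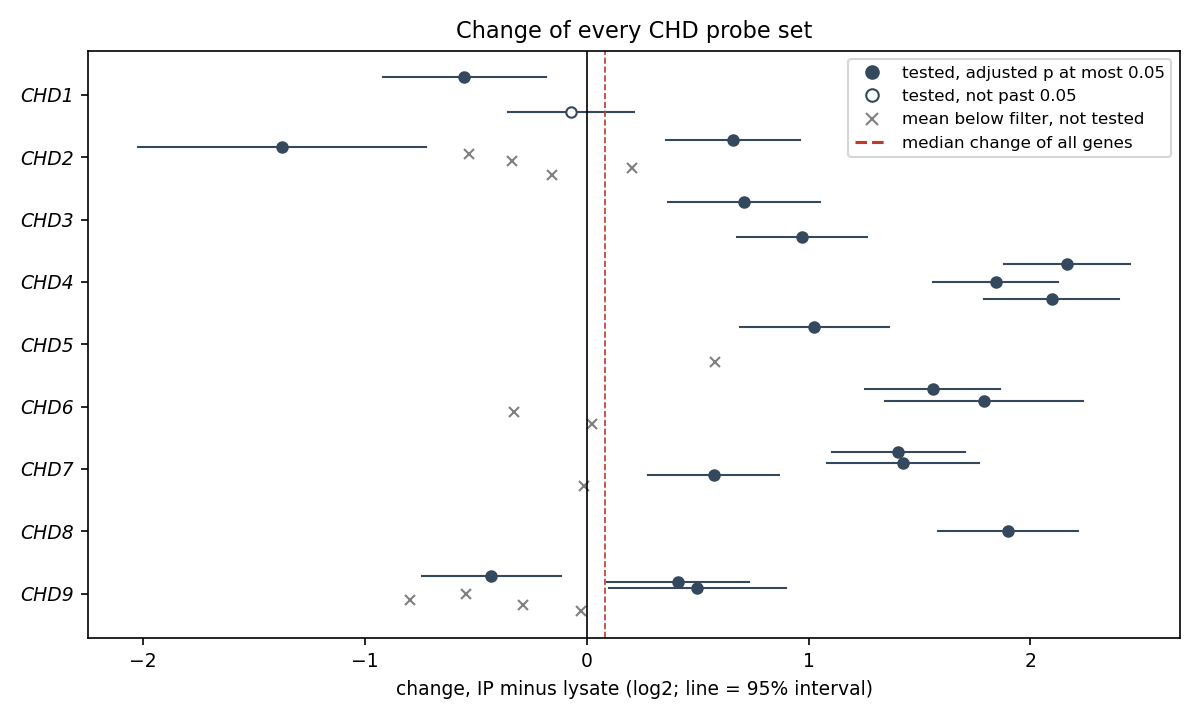
Change of all 31 CHD probe sets (x axis, log2, IP minus lysate), grouped by gene, with 95% intervals for the 19 tested. All CHD4, CHD8, CHD3 and CHD5 points lie right of 0, and the CHD9, CHD2, CHD6 and CHD7 points lie on both sides. The CHD6 and CHD7 points left of 0 are of probe sets below the filter. The CHD2 point farthest left is 228999_at, which was tested only because of its lysate mean. Its filled marker and interval are therefore no result about CHD2. The dashed line marks the median of all genes, 0.08.

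CHD4 and CHD8 were set beside CHD1 and CHD9 as the ends of the family. The pairs were named with their changes already known, so the values are a description with no test. On IP replicate 1 the mean change against the lysate mean was 2.01 for CHD4 and CHD8 and -0.41 for CHD1 and CHD9. On IP replicate 2 these means were 2.06 and -0.57. The difference between the pairs was 2.52 over both arrays, 2.42 on IP replicate 1 and 2.63 on IP replicate 2, and 2.04 with averaged probe sets. Centring each array on another value cannot move a difference between genes on the same arrays, and it stayed at 2.52 with hybridization control centring.

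The gap was present for every pairing of tested probe sets, although the direction of CHD9 depended on its probe set. The 4 probe sets of CHD4 and CHD8 had changes from 1.84 to 2.16, and the 5 tested probe sets of CHD1 and CHD9 from -0.55 to 0.50, so the nearest of them were 1.35 apart. CHD8 and CHD9 belong to the same subfamily: the change of CHD8 exceeded that of CHD9 by 2.33, while CHD4 and CHD8, of different subfamilies, had changes of 2.16 and 1.90. CHD6 (1.56) and CHD7 (1.40) lay nearer to CHD8 than to CHD9, and CHD2 (0.66) and CHD3 (0.71) lay between the ends.

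**Figure D3:**
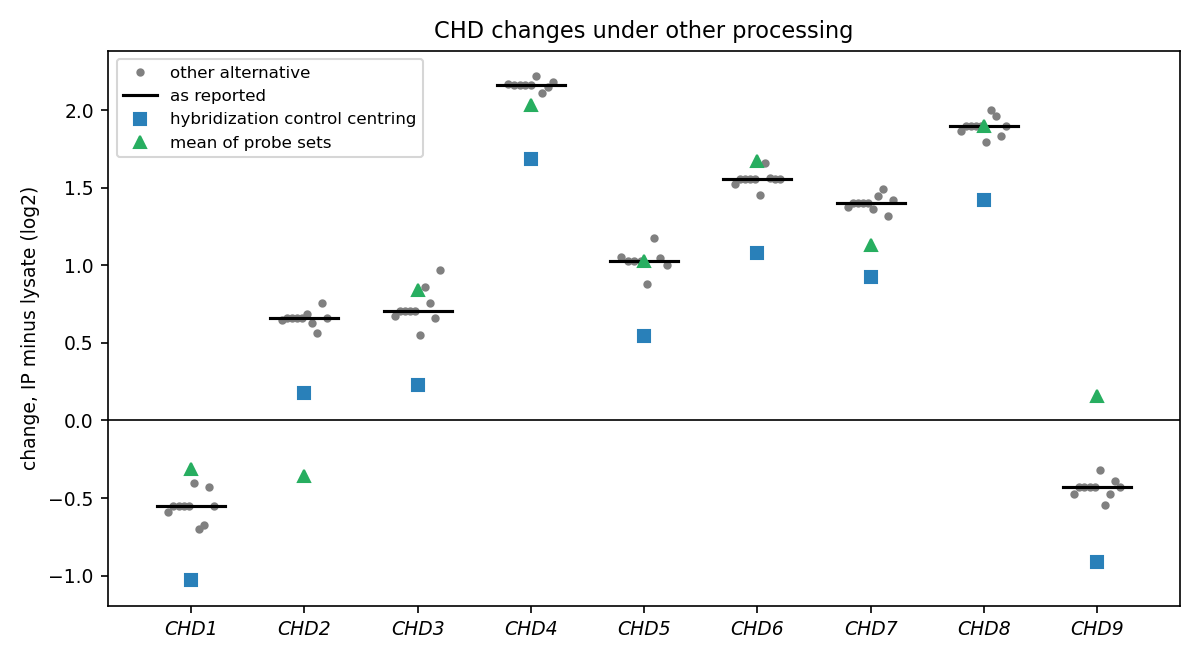
Change of each CHD gene (y axis, log2, IP minus lysate) as reported (black bar), with hybridization control centring (blue squares), with the mean of its kept probe sets (green triangles) and under the other alternatives (grey points). CHD4 to CHD8 stay above 0 wherever they have a value, and the triangles of CHD2 (-0.36) and CHD9 (0.16) lie across 0 from their bars. The CHD2 triangle includes 228999_at, which was tested only because of its lysate mean.

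The partner genes of CHD3, CHD4 and CHD5 had calls in both directions, in a comparison where 35% of all genes were higher and 28.8% lower. Of 15 genes of NuRD and of ChAHP, a complex of CHD4 with ADNP and heterochromatin protein 1, 8 were higher in the IP, 4 lower and 3 not called, with a median change of 0.44 that turned to -0.04 with hybridization control centring (5 higher, 7 lower). The lower genes numbered 2 without lysate replicate 2 and 2 with unique probe sets. Over all genes, hybridization control centring gave 15.9% higher and 48.5% lower, with a median of -0.40. MBD3, the methyl-CpG-binding-domain subunit, changed by 1.27 and MTA2, a scaffold subunit, by 1.23 (limma adjusted p = 1.04e-04 and 1e-04). CDK2AP1, a small NuRD-associated protein, changed by -1.85 (limma adjusted p = 3.49e-05).

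Of 9 elongation factor genes whose proteins bind Chd1 in yeast or belong to the same complexes, 5 were higher, 2 lower and 2 not called, with a median of 0.75, or 0.27 with hybridization control centring. SUPT16H, a subunit of the histone chaperone FACT, changed by 1.51 and LEO1, of the PAF1 complex, by 1.16, while CDC73, of the same complex, changed by -0.39 with an adjusted p of 0.0497 (limma). With any 1 of the 4 arrays left out, at most 1 of these genes was lower. Of 8 partner genes of CHD7 and CHD8, 6 were higher, none lower (limma; 0 also at an unadjusted p under 0.05) and 2 not called, with a median of 0.60. ARID1A, of the SWI/SNF complex, changed by 0.99 and WDR5, shared by histone methyltransferase complexes, by 0.83. With hybridization control centring 1 was higher and 1 lower, with a median of 0.12, and WDR5 did not pass (0.36, adjusted p = 0.0813).

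Of 21 other SNF2-family ATPases, 16 were higher in the IP, 3 lower and 2 not called, with a median of 0.84. With hybridization control centring 10 were higher, with a median of 0.36. With unique probe sets 10 were higher, with a median of 0.69, beside 33.7% of the 9977 genes then tested. How many of the 21 had a unique probe set is not given here. Without lysate replicate 1 none was lower (limma; 3 at an unadjusted p under 0.05). SMARCAL1, an enzyme that anneals DNA strands at replication forks, changed by 2.07 and SMARCA1, an ISWI remodeller, by 1.80, while RAD54B, a recombination factor, changed by -0.64 (limma adjusted p = 3.44e-05, 6.08e-05 and 0.0148). The lists were chosen with earlier results of these data known, and their counts are read against the 35% and 28.8% of all genes. Counts with hybridization control centring are read against 15.9% higher and 48.5% lower, and medians against -0.40.

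**Figure D4:**
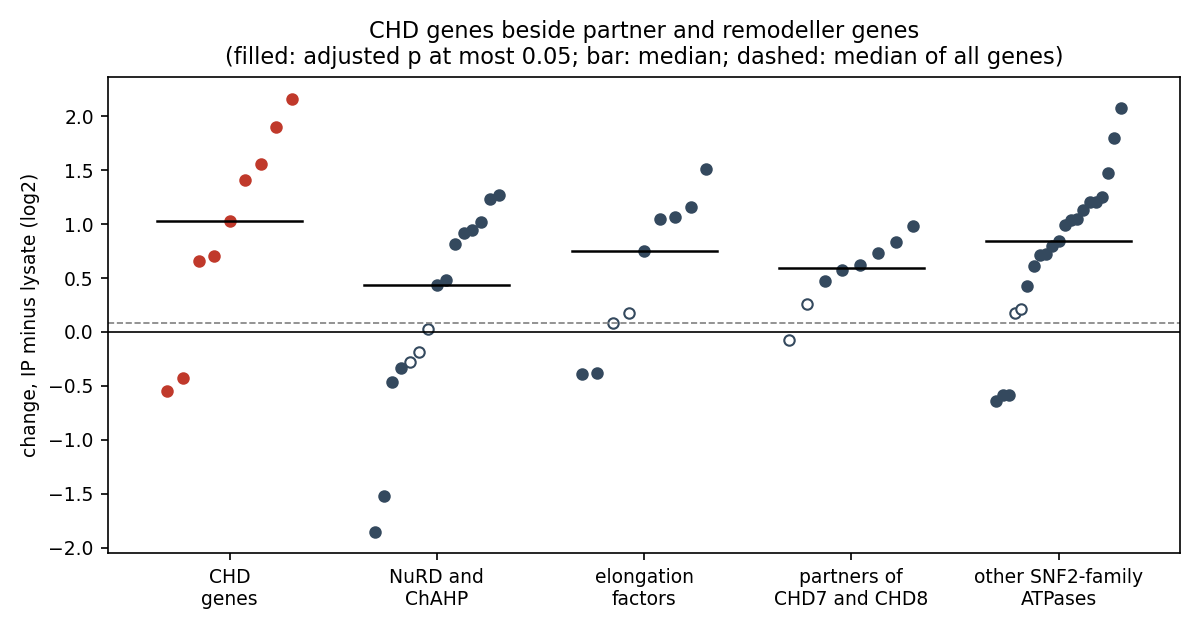
Change (y axis, log2, IP minus lysate) of the 9 CHD genes (red) and of the genes of 4 partner and remodeller lists (dark blue), 1 point per gene, filled where the adjusted p was at most 0.05, with bars at the list medians. The medians are 1.03, 0.44, 0.75, 0.60 and 0.84 from left to right, and the dashed line marks the median of all genes, 0.08.

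Profiles like those of the contrasted genes were found by the Euclidean distance between log2 values on the 4 arrays, each gene centred on its own mean, as a description. CHD4 was nearest to HERC5 (distance 0.09), WDR19 (0.10) and LAMA1 (0.12), and 1 gene lay within 0.1 of it. CHD8 was nearest to UBR4, PHKA2 and NCAPD2, at 0.02 to 0.03, with 28 genes within 0.1. CHD1 was nearest to C20orf203 (0.02), ATG4C (0.04) and HLTF (0.04), and CHD9 to CLINT1, PLA2G4F and SLC38A1 (0.03 to 0.04), with 22 and 61 genes within 0.1.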

How the data were processed

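RNA of 2 FMRP IP and 2 lysate samples was measured on 4 Affymetrix arrays. The values are log2 probe set signals as deposited, a scale read from their range (1.68 to 13.98) and array medians of 4.67 to 4.71. How the authors corrected, summarised and normalized the signals is not given in the sources used here. No detection calls come with them, and the number of arrays limits the precision.

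Of 54675 probe sets, 41091 had 1 symbol, updated through the Entrez number for 41043. The probe set with the highest mean represented a gene. The IP minus lysate difference was estimated with lmFit and eBayes of limma 3.58.1 (R 4.3.3, no covariate, 2 residual degrees of freedom), once over 13157 genes and once over 23516 probe sets, with Benjamini-Hochberg adjustment. A further limma fit, chosen after seeing the data, compared the change of each probe set with that of its gene's brightest set. Figures were drawn with matplotlib 3.10.9. The fit was tested on simulated data. Alternatives covered normalization, filter, probe set choice, spread, threshold, replicate block and leaving out arrays.

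The members and gene lists were chosen with earlier results of these data known. The text names every CHD gene, per list up to 3 called genes (the 2 largest changes in the direction of the list median, 1 in the other), and the 3 nearest profiles of 4 genes. Markers named beyond this (NEFM, HBB) were chosen after their values were seen. A grouping of genes by protein length was planned and not run, since no protein table was used here.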

Additional observations from a re-analysis of the deposited data

How the results depend on the processing

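With only 2 arrays per group, an exact permutation test of a single gene cannot go below 0.333, so calls rest on a spread pooled over genes, and the table gives no background level. Of 114 recomputed CHD gene changes 102 kept direction and call, 10 lost the call and 2 reversed, CHD2 (-0.36) and CHD9 (0.16), both with the mean of probe sets. The CHD2 mean includes 228999_at, which was tested only because of its lysate mean. Of 206 probe set changes 183 kept direction and call and 21 lost the call. With hybridization control centring 1 gained it, 235791_x_at of CHD1, and 1 reversed, 212615_at of CHD9, at -0.067. CHD4, CHD5, CHD6, CHD7 and CHD8 kept direction and call under every alternative that could be run for them. The number of higher CHD genes ran from 5 to 7. It was 5 of 9 with hybridization control centring (CHD median 0.55), where 15.9% of all genes were higher. It was 5 of 7 tested with unique probe sets (33.7% of all genes). With a stricter filter, a mean of 6 or more, it was 6 of 8 tested (41.4%). Over all genes, 18.3% were lower with no filter, 23.8% at a threshold of 0.01 and 29.5% with the mean of probe sets. The number of lower CHD genes was 1 with no filter, and 0 at a threshold of 0.01 or with the mean of probe sets, and ran from 0 to 2 with an array left out (limma; at an unadjusted p under 0.05 it was 0 without lysate replicate 1, 1 with the mean of probe sets and 2 in the others). The lower CHD probe sets numbered 1 at a threshold of 0.01 and 1 to 3 with an array left out. Where 1 lower probe set was left it was 228999_at of CHD2, kept only through its lysate mean, so that count is no result about CHD2. The difference of the CHD4 and CHD8 mean from the CHD1 and CHD9 mean was 2.04 with the mean of probe sets. The cause of these shifts was not tested, except that the filter and the threshold change the number of genes tested or the cutoff itself.

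With hybridization control centring, 2090 genes were higher (15.9%) and 6385 lower (48.5%), and 3442 probe sets were higher and 11234 lower. NuRD and ChAHP genes then counted 5 higher and 7 lower (median -0.041), the other ATPases 10 higher (median 0.36), the elongation factors a median of 0.27, and the CHD7 and CHD8 partners 1 higher and 1 lower, their median being 0.12. When only unique probe sets were used, which leaves CHD4 and CHD5 without a value and so gives no difference between the pairs, 2 NuRD and ChAHP genes were lower (median 0.35), 10 other ATPases were higher (median 0.69), 3 elongation factors were higher and 1 lower (median 0.57), and the CHD7 and CHD8 partners had a median of 0.57. Of the 9977 genes tested in that setting, 33.7% were higher and 28.6% lower. With the mean of probe sets the other ATPases had a median of 0.65, 1 elongation factor and 1 CHD7 and CHD8 partner were lower, and those partners had a median of 0.55, or 0.56 with quantile normalization. No elongation factor was lower with no filter or at a threshold of 0.01 (0 in each, against 1 and 2 at an unadjusted p under 0.05; limma). With an array left out, lower genes ran from 2 to 4 for NuRD and ChAHP (medians 0.31 to 0.47), from 0 to 3 for the other ATPases (medians 0.70 to 1.02) and from 0 to 1 for the elongation factors; at an unadjusted p under 0.05 these were 3 ATPases and 1 to 2 elongation factors with any array left out.

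With the replicate number as a block, 4730 genes were higher and 3868 lower, with 7 CHD genes higher and 2 lower, and no CHD or list count changed. The numbers are not known to pair the samples: across genes, replicate 1 minus replicate 2 in the IP and in the lysate correlated at 0.10, with 2 pairs only.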
